A study of Mus musculus with 3 samples.

Results

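The 165 intervals described here are NBS1 and input peaks in windows named for the genes they hold. The first is named for a tandem array of 5S ribosomal RNA genes. The second is named for the main cluster of histone genes with transfer RNA (tRNA) genes. The intervals were defined by position in the mouse build mm9, not by overlap with a gene. They are all intervals of the 4 deposited peak lists inside chr8:126000000-127000000, called the 5S window, and inside chr13:21000000-24000000, called the histone window. The 5S window holds 85 and the histone window 80 of the 21785 intervals in all. The windows were chosen from the numbers of peaks in these same lists, so their counts describe them and support no test. The AH2 NBS1 peaks nearest to the edges of the 5S window were at chr8:126062658-126062773 and chr8:126956790-126956856 inside it, and at chr8:125430745-125430889 and chr8:127282534-127282652 outside it. For the histone window they were at chr13:21252597-21252728 and chr13:23622211-23622295 inside, and at chr13:19590682-19590740 and chr13:25581022-25581079 outside. No edge cut through a group of AH2 NBS1 peaks.

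The study immunoprecipitated NBS1, with an Abcam monoclonal antibody from rabbit, from AH2 and R2K.Artm cells, both mouse pre-B lines transformed with v-Abl, and sequenced AH2 input DNA beside them. The labels give the genotype as not applicable and name no treatment, and what the name R2K.Artm stands for is not stated. Each of the 3 groups is 1 library, no library with an unrelated antibody was analysed here, and so no difference below has a replicate error or a p-value. A further list gives AH2 NBS1 peaks after a subtraction of R2K.Artm NBS1 and, by its title, input.

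NBS1 belongs to the MRE11-RAD50-NBS1 complex, which recognises DNA double-strand breaks and helps to activate the ATM kinase. 5S rRNA, encoded by Rn5s and its copies, is a component of the large ribosomal subunit, and tRNAs carry amino acids to the ribosome. Genes of both kinds are short, are transcribed by RNA polymerase III and occur in many near-identical copies. Replication-dependent histone genes, which lie among tRNA genes in the histone window, are also short, have no introns and are expressed mainly during DNA synthesis. In the reference gene table, which is of build GRCm38.p6 and was used only for the order of genes, Rn5s is one of 51 consecutive entries on chromosome 8, from n-R5s100 to Gm23647, of which 48 are annotated as rRNA and 3 as pseudogenes. Gas8 precedes them and Gm19600 follows. On chromosome 13 the same table has 104 tRNA genes, 24.2% of its 430 tRNA entries, and 56 histone genes between n-TEctc11 and H2ac1. A block of 75 vomeronasal receptor (Vmn1r) entries, with no tRNA or histone gene inside it, separates 59 tRNA and 24 histone genes on one side from 45 tRNA and 32 histone genes on the other. Positions were not carried over between builds, so no peak is assigned to a gene, and no sequence of these peaks is printed, since the mm9 sequence was not used here.

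Both NBS1 lists had more peaks per Mb in each window than on the rest of its chromosome, and the windows took a larger share of either NBS1 list than of the input list. In the 5S window lay 43 peaks of AH2 NBS1, 24 of R2K.Artm NBS1, 12 of AH2 input and 6 intervals left after subtraction. As shares of each list with 95% Wilson intervals, which cover counting error only, these were 0.827% (0.614 to 1.11%), 0.752% (0.506 to 1.12%), 0.101% (0.0577 to 0.176%) and 0.403% (0.185 to 0.876%). For AH2 NBS1 this was 8.20 times the input share and 1.10 times the R2K.Artm NBS1 share. Per Mb, AH2 NBS1 had 43 peaks in the window and 2.03 on the rest of chromosome 8, R2K.Artm NBS1 had 24 and 1.31, and input had 12 and 5.22. The next fullest megabase of chromosome 8 held 16 peaks of AH2 NBS1 and 7 of R2K.Artm NBS1, whereas the fullest for input held 28.

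In the histone window there were 41 peaks of AH2 NBS1, 17 of R2K.Artm NBS1, 16 of AH2 input and 6 intervals left after subtraction. The shares were 0.788% (0.582 to 1.07%), 0.533% (0.333 to 0.851%), 0.134% (0.0828 to 0.218%) and 0.403% (0.185 to 0.876%). For AH2 NBS1 this was 5.87 times the input share and 1.48 times the R2K.Artm NBS1 share, and the intervals of the NBS1 shares overlapped. AH2 NBS1 had 13.7 peaks per Mb in the window and 1.73 on the rest of chromosome 13, R2K.Artm NBS1 had 5.67 and 1.05, and input had 5.33 and 4.15. In number per Mb, input was thus close to R2K.Artm NBS1 in the histone window, and it was their list shares that differed. Among the 744 top-scoring intervals of each list, the AH2 NBS1, R2K.Artm NBS1 and input lists had 4, 1 and 1 in the 5S window and 11, 7 and 0 in the histone window. This cut leaves out most intervals of either window. The median AH2 NBS1 score in the 5S window was above that of 69.2% of the whole list. With intervals under 10 kb apart merged, which turns the close groups of the 5S window into single regions, its share was 0.0654% of AH2 NBS1 and 0.112% of input, the reverse order. The lists differ in length and their depth is unknown, so these numbers are not amounts of binding.

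The peaks of the 5S window formed an evenly spaced ladder. A single run of intervals less than 10 kb apart, at chr8:126062658-126147677 and 85.0 kb long, held 41 of the 43 AH2 NBS1 peaks, 22 of the 24 R2K.Artm NBS1 peaks, all 6 intervals of the subtracted list and 3 of the 12 input peaks. Of the 40 distances between the centres of neighbouring AH2 NBS1 peaks in it, 32 lay between 1617 and 1744 bp, with a median of 1699 bp. Another 6 lay between 3398 and 3428 bp, and the remaining 2 were 5090 and 5092 bp. The distances thus fell into 3 narrow classes, at 1, 2 and 3 times a common spacing. A least-squares line through the peak centres gave a spacing of 1696 bp, with a residual SD of 28.6 bp over the 41 peaks, so that the run spans 51 positions. The gene table likewise lists 51 consecutive entries around Rn5s, but the positions and entries were not matched to each other.

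**Figure D1:**
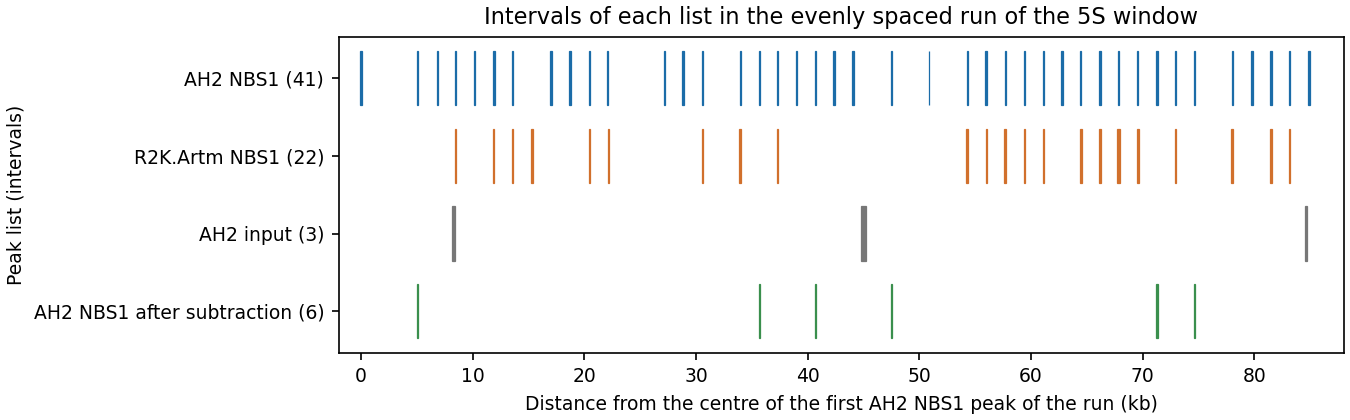
Intervals of the 4 lists along the evenly spaced run of the 5S window, drawn to scale as bars against the distance in kb from the centre of the first AH2 NBS1 peak, with the number of intervals in brackets. The 41 AH2 NBS1 and 22 R2K.Artm NBS1 peaks stand on a regular ladder, with 3 AH2 input peaks and 6 intervals after subtraction in the same stretch.

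R2K.Artm NBS1 peaks followed the same ladder. Fitted on its own, the R2K.Artm list gave a spacing of 1696 bp with a residual SD of 28.7 bp. Measured against the positions fitted to AH2 NBS1 alone, every one of the 22 R2K.Artm NBS1 centres lay within 63.2 bp of a position, with a median distance of 14.9 bp. The largest distance among the AH2 NBS1 peaks themselves was 57.0 bp and the median 21.3 bp. The centres of the 3 AH2 input peaks lay farther off, 190, 204 and 800 bp before the nearest position. They were 243 to 398 bp wide, against 57 to 192 bp for AH2 NBS1 and 74 to 222 bp for R2K.Artm NBS1 in the run. The input peak at chr8:126070880-126071148 overlapped the AH2 NBS1 and R2K.Artm NBS1 peaks of position 6, and the other input peaks of the run overlapped no NBS1 peak. The centres of both NBS1 lists therefore recurred at 1 place within the repeated unit, and the input centres lay off it. How reads that match several copies were placed is not given in the sources used here, so a peak at a position cannot be read as signal from that copy alone.

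**Figure D2:**
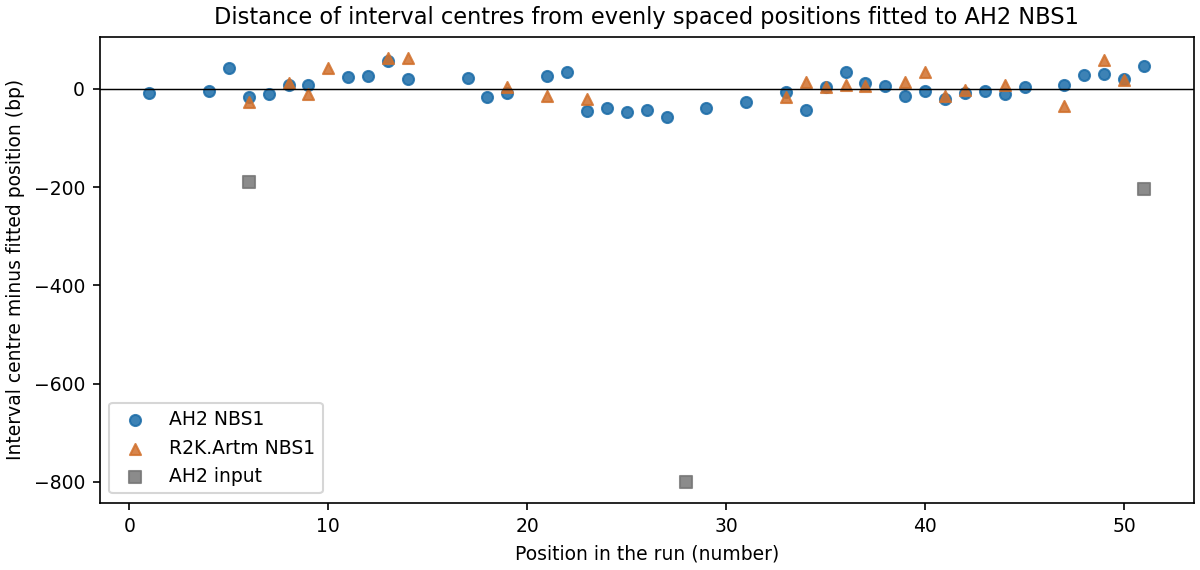
Distance in bp of each interval centre from the nearest of the evenly spaced positions fitted to AH2 NBS1, against the number of the position in the run. AH2 NBS1 (circles) and R2K.Artm NBS1 (triangles) stay within 63.2 bp of 0, and the centres of the 3 AH2 input peaks (squares) lie 190 to 800 bp below it.

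Of the 51 positions, 41 (80.4%) had an AH2 NBS1 peak and 22 (43.1%) an R2K.Artm NBS1 peak. Both lists had a peak at 21 positions, AH2 NBS1 alone at 20, R2K.Artm NBS1 alone at 1, and neither at 9. The empty positions were numbers 2, 3, 15, 16, 20, 28, 30, 32 and 46, so they were spread along the run. The position with R2K.Artm NBS1 alone was number 10, where the R2K.Artm peak had a score of 50.1, close to the minimum of 50 in every list. The score is the authors' peak-caller value and was read only within a list.

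Within the run the AH2 NBS1 scores ranged from 50.7 to 233 with a median of 91.1, above the median of 67.6 for the whole list. The R2K.Artm NBS1 scores ranged from 50.1 to 104 with a median of 69.4, near that list's median of 68.0. The 3 input peaks scored 55.5 to 57.5, under the input median of 59.9. AH2 NBS1 peaks at positions shared with R2K.Artm NBS1 had a median score of 80.3 and those at positions without it 95.8. This order differs from the whole AH2 NBS1 list, where peaks that overlapped R2K.Artm NBS1 alone had a median of 87.5 and those that overlapped neither other list 58.3. The highest AH2 NBS1 score in the run was at chr8:126110143-126110219 (233, rank 449 of 5201), a position without an R2K.Artm NBS1 peak. It was followed by chr8:126083102-126083169 (174), which R2K.Artm NBS1 shared, and by chr8:126103343-126103432 (153) and chr8:126062658-126062773 (146), which it did not. The highest R2K.Artm NBS1 scores in the run were at chr8:126128829-126128997 (104), chr8:126127116-126127279 (102) and chr8:126074562-126074655 (98.3), each shared with AH2 NBS1.

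Outside the run, the 5S window had 2 further places with NBS1 peaks, and both coincided with input. At chr8:126485312-126485550 all 3 libraries had a peak, with scores of 453 in AH2 NBS1 (rank 204), 346 in R2K.Artm NBS1 (rank 247) and 210 in AH2 input (rank 521). These were the highest scores of the window in each of the 3 lists. At chr8:126956707-126956911 the scores were 111, 87.0 and 75.4. The remaining 7 input peaks stood alone, among them chr8:126042591-126042917 (107), chr8:126701360-126701621 (67.0) and chr8:126473542-126473749 (63.5). Input peaks in the 5S window were wide, with a median of 215 bp against 134 bp on the rest of chromosome 8, while AH2 NBS1 peaks had medians of 116 and 115 bp and R2K.Artm NBS1 peaks of 140 and 142 bp.

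Peaks of the histone window were grouped but not evenly spaced. Of the 41 AH2 NBS1 peaks, 31 had another AH2 NBS1 peak within 10 kb, 75.6% (60.7 to 86.2%), against 11.2% (7.49 to 16.3%) on the rest of chromosome 13 and 95.3% (84.5 to 98.7%) in the 5S window. The values for R2K.Artm NBS1 were 35.3% in the histone window and 10.8% on the rest of the chromosome, and those for input were 12.5% and 16.7%. None of the 40 distances between neighbouring AH2 NBS1 peaks fell between 1617 and 1744 bp, the range of single steps in the 5S run. There were 7 distances under 1 kb, all between 440 and 661 bp, so that some peaks came in close pairs. The 5 runs with the most AH2 NBS1 peaks were at chr13:23523282-23545416 with 7, chr13:22019720-22032870 with 5, chr13:23589991-23598497 with 4, chr13:23609059-23622299 with 4 and chr13:21252597-21260037 with 3. R2K.Artm NBS1 had 1, 1, 1, 3 and 1 peaks in them, in that order, and input had none in any of the 5.

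Along the window, the bins of 500 kb from 22.0 and from 23.5 Mb held 11 and 15 peaks of AH2 NBS1, 5 and 6 of R2K.Artm NBS1, and 3 of input each. The bin from 22.5 Mb held 1 AH2 NBS1 peak, no R2K.Artm NBS1 peak and 1 input peak. The longest stretch without an R2K.Artm NBS1 peak, 1.37 Mb at chr13:22118550-23488905, was singled out after the positions were seen. It held 4 AH2 NBS1 peaks, 2.92 per Mb against 22.7 per Mb in the rest of the window. Input went the other way, with 10 peaks in the stretch, 7.30 per Mb, and 3.68 per Mb in the rest of the window. Since the stretch was chosen by its lack of R2K.Artm NBS1 peaks, its sparse NBS1 peaks follow partly from that choice. Input was most numerous in the bin from 23.0 Mb, which held 7 input, 4 AH2 NBS1 and 2 R2K.Artm NBS1 peaks. In the bin from 22.5 Mb input was as sparse as AH2 NBS1.

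**Figure D3:**
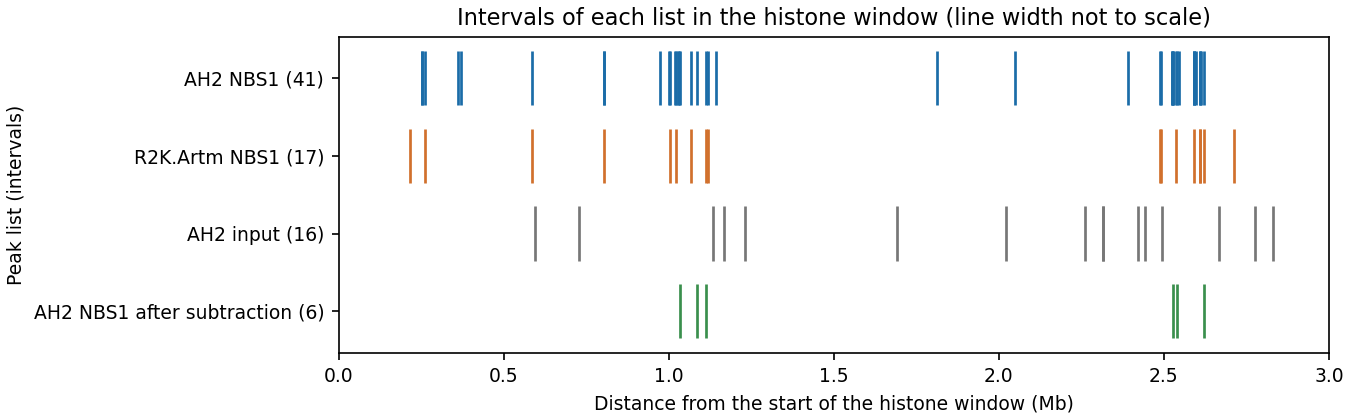
Positions of the intervals of the 4 lists in the histone window, as vertical lines against the distance in Mb from the window's start, with the number of intervals in brackets. A middle stretch of 1.37 Mb, chosen as the longest without an R2K.Artm NBS1 peak, holds 4 AH2 NBS1 peaks and 10 of the 16 AH2 input peaks.

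The strongest peaks of the histone window ranked higher in the AH2 NBS1 list than those of the 5S run. The median AH2 NBS1 score was 106, above that of 76.4% of the whole list, and the highest were at chr13:22066890-22066979 (498, rank 174), chr13:23622211-23622295 (460, rank 194), chr13:21802860-21802994 (404, rank 242), chr13:22023036-22023182 (375, rank 264) and chr13:23591937-23592074 (312, rank 330). All 5 overlapped an R2K.Artm NBS1 peak and none an input peak. In R2K.Artm NBS1 the highest scores were at chr13:22066890-22066989 (195, rank 422), chr13:21802833-21802957 (188), chr13:23537993-23538139 (157), chr13:22023019-22023161 (155) and chr13:23488906-23489073 (118), all overlapping AH2 NBS1. The first of these regions led both lists. Input scores in the window reached only 93.8, at chr13:22166351-22166421 (rank 1662 of 11903), followed by chr13:22132728-22132796 (76.3), chr13:21726346-21726534 (65.8), chr13:22690415-22690607 (65.2) and chr13:23020236-23020365 (61.9).

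AH2 NBS1 peaks of the histone window were also narrow. Their median width was 90 bp (95% interval of the median from order statistics, 85 to 115 bp), against 117 bp (113 to 123 bp) on the rest of chromosome 13, and 24 of 41 (58.5%) were at most 100 bp wide, against 31.5% on the rest of the chromosome. R2K.Artm NBS1 peaks did not show this, with medians of 143 bp in the window and 140.5 bp outside it. For input the medians were 115 and 131 bp, with an interval of 92 to 155 bp in the window.

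In both windows, the share of R2K.Artm NBS1 peaks that overlapped AH2 NBS1 was above that elsewhere on the chromosome, while for either NBS1 list the share that overlapped input was below it. Over the whole lists, R2K.Artm NBS1 overlapped 32.8% of the AH2 NBS1 peaks by at least 1 base, AH2 NBS1 overlapped 52.0% of those of R2K.Artm NBS1, and input overlapped 28.9% and 38.7% of the AH2 and R2K.Artm lists. In the 5S window 23 of 24 R2K.Artm NBS1 peaks overlapped AH2 NBS1, 95.8% (79.8 to 99.3%), and in the histone window 15 of 17 did, 88.2% (65.7 to 96.7%). On the rest of chromosomes 8 and 13 these shares were 45.5% and 56.7%. Most NBS1 peaks of the 5S window stand on the 51 ladder positions, of which AH2 NBS1 had 80.4% and R2K.Artm NBS1 43.1%. Both had a peak at 21 positions, out of 41 for AH2 NBS1 and 22 for R2K.Artm NBS1. How much of the overlap there goes with the common positions was not measured, and agreement on single copies was not tested. In the other direction, 23 of 43 AH2 NBS1 peaks of the 5S window overlapped R2K.Artm NBS1, 53.5% (38.9 to 67.5%), against 30.5% on the rest of the chromosome. In the histone window it was 15 of 41, 36.6% (23.6 to 51.9%), close to the 36.0% on the rest of chromosome 13 and to the 32.8% of the whole list. With only scores of at least 100 in both lists, the overlap in the 5S window was 1 of 17 AH2 NBS1 peaks and 1 of 3 R2K.Artm NBS1 peaks, 33.3%, in place of 95.8%. That pair lay at chr8:126485312-126485550, outside the evenly spaced run and at an input peak, so no overlap on the ladder remained at this limit. The other R2K.Artm NBS1 peaks over the limit stood at positions 39 and 40, with scores of 102 and 104. The AH2 NBS1 peaks they overlapped scored 66.35 and 90.84, under the limit. The overlap at this limit was not computed over the whole lists.

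Overlap with input was 3 of 43 AH2 NBS1 peaks in the 5S window, 6.98% (2.40 to 18.6%), against 34.0% (28.5 to 39.9%) on the rest of chromosome 8. In the evenly spaced run it was 1 of 41, 2.44% (0.432 to 12.6%). With 3 input peaks in the run and 12 in the whole 5S window, most NBS1 peaks there could not have overlapped input. The low shares of the 5S window are therefore limited by the number of input peaks. In the histone window 0 of 41 AH2 NBS1 peaks overlapped input, which allows a share of up to 7.32%, against 29.4% (23.5 to 36.2%) on the rest of chromosome 13. R2K.Artm NBS1 had 3 of 24 (12.5%) in the 5S window and 0 of 17 in the histone window, which allows up to 17.6%, against 35.3% and 37.5% on the rest of the chromosomes. From the side of input, 12.5% of all its peaks overlapped AH2 NBS1, as did 3 of 12 in the 5S window, 25% (8.89 to 53.2%), and 0 of 16 in the histone window, which allows up to 18.8%. The nearest input peak to an AH2 NBS1 peak in the histone window was 1349 bp away. No region of either window was in all 4 lists. In the whole AH2 NBS1 list, 1097 peaks overlapped both R2K.Artm NBS1 and input, and only 3 of them were retained after subtraction. The absence is thus not particular to the windows.

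**Figure D4:**
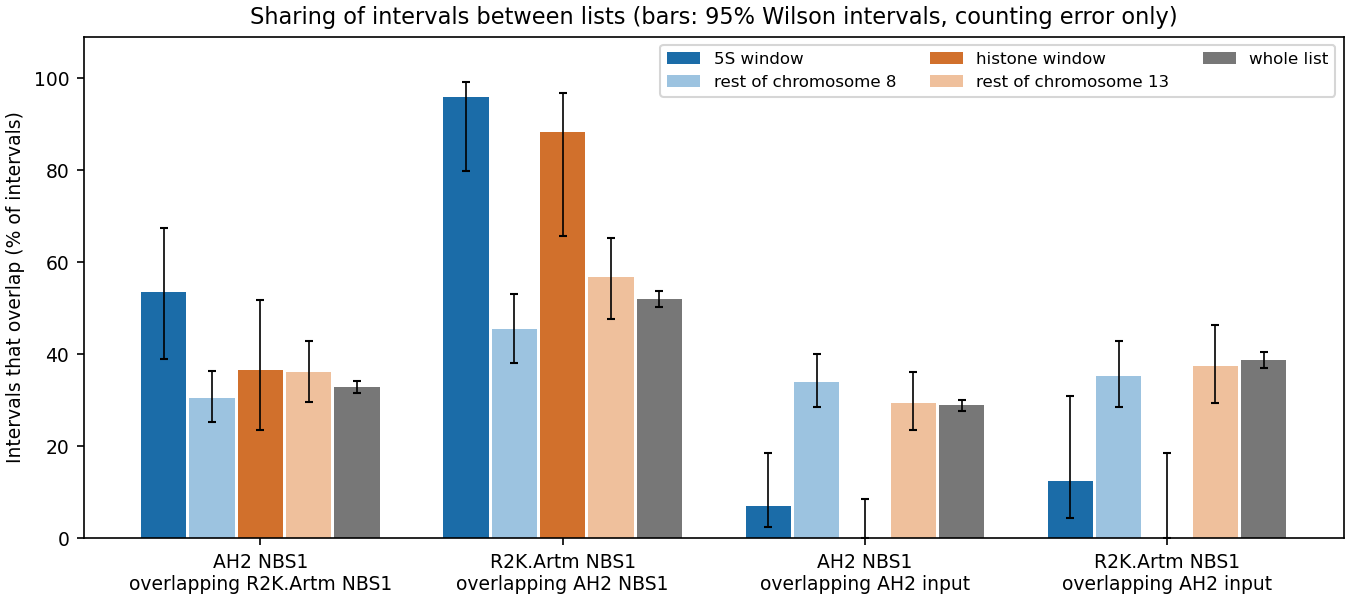
Percentage of NBS1 intervals that overlap another list by at least 1 base, in the windows, on the rest of their chromosomes and in the whole list, with 95% Wilson intervals that cover counting error only. Overlap of R2K.Artm NBS1 with AH2 NBS1 is 95.8% and 88.2% in the windows, and overlap with AH2 input is at most 12.5% there.

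Scores of the shared AH2 NBS1 peaks differed between the windows. In the histone window the 15 peaks that overlapped R2K.Artm NBS1 had scores from 56.7 to 498 with a median of 270, and the 26 others had 53.4 to 178 with a median of 77.2. In the 5S window the 23 shared peaks had a median of 84.8 and the 20 others 95.8. On the rest of chromosome 13, all peaks that overlapped R2K.Artm NBS1 had a median of 122. It was 270 for those also in input, 100 for those not in input, and 62.4 for peaks in neither list. The shared peaks of the histone window thus had a median like that of peaks in both other lists elsewhere on the chromosome, but overlapped no input peak. The peaks of 1 library are not replicates, so this difference between the windows was not tested.

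**Figure D5:**
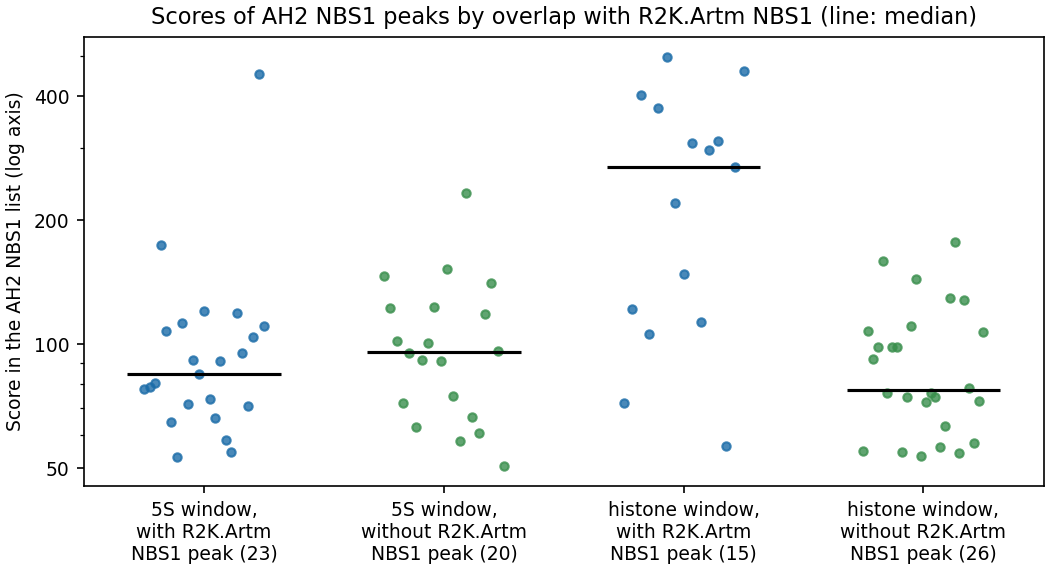
Scores of AH2 NBS1 peaks in the AH2 NBS1 list, on a log axis, for peaks with and without an overlapping R2K.Artm NBS1 peak in each window, with the number of peaks in brackets, a line at each median and the points spread sideways only for legibility. Shared peaks of the histone window reach 498 around a median of 270, while the medians of the 5S window are 84.8 and 95.8.

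The subtracted list retained a share of these peaks near that of the whole AH2 NBS1 list. Of all AH2 NBS1 peaks 17.7% had an interval in the subtracted list, and in the windows 6 of 43 (14.0%) and 6 of 41 (14.6%) did. All 12 intervals of the subtracted list in the windows were identical in position to AH2 NBS1 peaks, as were 61.9% of the whole subtracted list. Of the whole subtracted list 6.18% overlapped input, and 0 of 6 did in either window, which allows a share of up to 50% and shows no difference.

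In the 5S window the 6 retained intervals were at chr8:126067764-126067851, chr8:126098307-126098454, chr8:126103343-126103432, chr8:126110143-126110219, chr8:126133885-126134042 and chr8:126137316-126137412. Being identical to AH2 NBS1 peaks, they stood on the ladder fitted to those peaks, at positions 4, 22, 25, 29, 43 and 45. None of these positions had an R2K.Artm NBS1 peak. The subtraction of R2K.Artm NBS1 largely fixes this, since only 0.672% of the whole subtracted list overlapped that list. The retained intervals were 6 of the 20 AH2 NBS1 peaks in the run that overlapped neither other list (30%). In the whole AH2 NBS1 list 27.0% of such peaks were retained. Their AH2 NBS1 scores were 119 to 233, whereas the other 14 such peaks had 50.7 to 146. Within the subtracted list their scores were 53.7 to 89.8, and the highest, at position 45, had rank 87 of 1489.

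In the histone window the retained intervals were at chr13:22032802-22032870, chr13:22086078-22086150, chr13:22112965-22113080, chr13:23528861-23528946, chr13:23538672-23538757 and chr13:23622211-23622295, with scores of 50.6 to 67.0 in the subtracted list. Of these 6, the intervals from 22112965 and from 23622211 overlapped an R2K.Artm NBS1 peak, 33.3% (9.68 to 70.0%). In the whole subtracted list 10 of the 1489 intervals, 0.672%, did so. With 6 intervals the share in the window is imprecise, and the difference was not tested. The interval from 23622211 had the second highest AH2 NBS1 score of the window, 460, a score of 98.3 in R2K.Artm NBS1, and rank 312 in the subtracted list.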

How the data were processed

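NBS1 chromatin immunoprecipitation and input libraries (1 per group) had been sequenced on a SOLiD platform, per the labels' protocols. Bowtie, MACS 1.4.2 and build mm9 were used, per the submitters' processing notes, while the Bowtie version, its handling of repeats and the control library behind each call were not given in the sources used here. The deposited value of each peak is the authors' peak-caller score. Depth is unknown. From the lists, intervals were counted, joined and measured in Python 3.11.15 with numpy 2.4.6, pandas 2.3.3, scipy 1.17.1 and matplotlib 3.10.9. Sharing meant an overlap of at least 1 base. Positions are 1-based, with 1 added to each deposited start. Evenly spaced positions were fitted by least squares to AH2 NBS1 peak centres, and the joins and this fit were tested on simulated data. Intervals of shares treat neighbouring peaks as independent, and a count of 0 is given a limit of 3 counts. Named intervals are those of the subtracted list, the 5 highest-scoring of each other list in each window, the 5 runs with the most AH2 NBS1 peaks and regions in all 4 lists. The windows, members and lists were chosen with earlier results of these data known. The peak lists give no expression, so the cell type was not checked.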

Additional observations from a re-analysis of the deposited data

How the results depend on the processing

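No paired analysis was possible because every group is 1 library, so leaving out a replicate was not possible either. Over 38 results 123 alternatives were computed, and 93 stayed within the interval of the reported value or, for runs, within 1.5 times it. Of these, 35 came from the 36 alternatives with windows widened by 500 kb. Widening added no interval to the histone window, so its values could not move. By contrast, 15 of 28 alternatives moved at scores of at least 100, and 5 of 8 with equal numbers of top-scoring intervals. At scores of at least 100, the 5S share was 1.27% of AH2 NBS1 peaks, 0.332% of R2K.Artm NBS1 and 0% of the subtracted list, and the histone share 1.57% of AH2 NBS1 peaks and 0% of input and of the subtracted list. In the 5S window 5.88% of AH2 NBS1 peaks (1 of 17) then overlapped R2K.Artm NBS1. The overlap of R2K.Artm NBS1 with AH2 NBS1 and with input was 33.3% (1 of 3 each), at a place outside the evenly spaced run. Of the same 17 AH2 NBS1 peaks 6 (35.3%) overlapped the subtracted list, which was taken whole, without the score limit. In the histone window all 7 R2K.Artm NBS1 peaks with scores of at least 100 overlapped AH2 NBS1 (100%). Overlaps at this limit were not computed over the whole lists, so they cannot be read as traits of the windows. Neighbours within 10 kb were then 82.4% (AH2 NBS1) and 66.7% (R2K.Artm NBS1) in the 5S window and 0% (R2K.Artm NBS1) in the histone window, and the median width of 5S input peaks was 274.5 bp. With 744 top-scoring intervals from each list, the 5S share was 0.538% of AH2 NBS1 (4 intervals) and 0.134% of both R2K.Artm NBS1 and input (1 each). The excess of R2K.Artm NBS1 over input was thus not seen at this cut, which takes a smaller part of the longer input list. The histone share at this cut was 1.48% for AH2 NBS1, 0.941% for R2K.Artm NBS1 and 0% for input. At scores of at least 100 the 5S shares were 0.332% of R2K.Artm NBS1 (3 of 904) and 0.1355% of input (2 of 1476). Merging intervals under 10 kb apart, which joins the ladder by construction, left 5S shares of 0.0654% (AH2 NBS1) and 0.141% (R2K.Artm NBS1), against 0.112% of input, so that AH2 NBS1 fell below input, and a histone share of 0.414% (AH2 NBS1). With at least 50% of a peak covered, 79.2% of R2K.Artm NBS1 peaks of the 5S window overlapped AH2 NBS1. Windows widened by 500 kb gave input a 5S share of 0.176%. Neighbours within 100 kb were 91.7% for input in the 5S window, and 92.7% for AH2 NBS1, 88.2% for R2K.Artm NBS1 and 68.8% for input in the histone window, where runs joined at 50 kb held up to 18 AH2 NBS1 peaks. Restriction to the evenly spaced run was chosen after seeing the data. No input peak of the histone window reached a score of 100, so its width and spacing have no value there. Apart from the merging, the cause was not tested. A place without a peak is not shown to lack NBS1, since lists hold only regions past the caller's threshold.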
